A study of Arabidopsis thaliana with 12 samples.

Results

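CLV3 (AT2G27250), WUS (AT2G17950) and the genes around them form the signalling circuit that sets the number of stem cells in the Arabidopsis shoot meristem. CLV3 encodes a small secreted peptide made by the stem cells. The peptide is perceived by receptors of the CLAVATA family, among them the kinase CLV1 (AT1G75820), the receptor-like protein CLV2 (AT1G65380) with its partner CORYNE (CRN, AT5G13290), and the kinase RPK2 (AT3G02130). Their signal restricts WUS, a homeodomain transcription factor of the organizing centre below the stem cells, and WUS in turn promotes stem cell identity and CLV3 expression. STM (AT1G62360), a KNOX homeodomain factor, keeps meristem cells from differentiating. The 9 genes described here were chosen by locus number: these 7, and AT2G27240 and AT2G27260, which lie on either side of CLV3. They are 9 of 27444 protein-coding genes and of 69873 features in the table of methylation values.

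DNA methylation was measured by bisulfite sequencing of stem cell nuclei sorted from inflorescence apices at day 28. Heat-treated plants had spent 1 day at 37 °C, ending at day 7, followed by 21 days of recovery, and control plants were grown without the heat. The genotypes were poliv (nrpda-3, SALK_128428, a mutant of the largest subunit of RNA polymerase IV), ddm1 (ddm1-10, SALK_093009, a mutant of a chromatin remodeller) and wt. All plants, wt included, are Col-0 and carry the stem cell reporter pCLV3::H2BmCherry, which was crossed into both mutants and whose fluorescence selected the nuclei. The construct holds the CLV3 promoter, and the sources used here do not say how far it extends over the gene. Each of the 6 groups (poliv heat, poliv control, ddm1 heat, ddm1 control, wt heat, wt control) had 2 libraries, but the table holds 1 pooled set of values per group. Each mutant is represented by 1 insertion line.

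In plants, cytosines are methylated in 3 sequence contexts, CG, CHG and CHH, where H is A, T or C. CG methylation is copied after replication by a maintenance enzyme and is common inside the transcribed part of moderately and widely expressed genes, where it is called gene body methylation. CHG and CHH methylation is mostly found in transposons. RNA polymerase IV makes the precursors of the small RNAs that direct methylation to such sequences, and DDM1 lets the methyltransferases reach DNA packed in heterochromatin.

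The level of a gene is the share of its cytosine calls in a context that were read as methylated, in percent. Since replicates were pooled, no spread between libraries exists, and the intervals given in brackets are 95% Wilson intervals that cover counting error only. Calls on the same read are not independent, so true errors are wider. Differences were tested with two-sided Fisher's exact tests on the calls, adjusted by the Benjamini-Hochberg method over all protein-coding genes with a value in the 6 groups. These tests compare pooled libraries, not genotypes or treatments. A gene was counted as higher or lower in a mutant only if it passed an adjusted p of 0.05 in the same direction in the heat pair and in the control pair. The chloroplast genome, taken as unmethylated, gives the level that unconverted cytosines leave. In CHH it was 0.703% to 0.805% in the 3 heat groups and 0.390% to 0.450% in the 3 control groups, and it differed in the same direction in CG and CHG. Total calls over all features in CG were 40440617 to 48850347 in every group but wt control, which had 30597398. At the mutated genes themselves, NRPD1 (AT1G63020) had CHG levels of 14.9% and 14.9% in poliv heat and control. It had 6.93% and 6.71% in ddm1 heat and control, and 0.951% and 0.730% in wt heat and control. DDM1 (AT5G66750) had CHG levels of 48.7% and 49.5% in ddm1 heat and control, against 0.547% and 0.434% in wt heat and control. The labelled cell type could not be checked on its markers, because DNA and not expression was measured.

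CLV3 holds few CG cytosines. The gene is 820 bases long (chr2:11664978-11665797, minus strand, TAIR10.1 in the RefSeq annotation) and holds 13 CG dinucleotides, or 26 CG cytosines on both strands. Of these dinucleotides 6 lie in coding sequence, 2 in an intron and 5 after the stop codon. The coding parts of the 3 exons are shown on the gene's own strand, with each CG in capitals. The interval that the authors summed for CLV3 is not given, so which of these sites entered the level was not tested.
CLV3 exon 1 (chr2:11665678-11665744): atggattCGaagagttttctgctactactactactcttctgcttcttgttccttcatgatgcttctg
CLV3 exon 2 (chr2:11665530-11665576): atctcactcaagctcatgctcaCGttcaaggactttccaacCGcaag
CLV3 exon 3 (chr2:11665186-11665362): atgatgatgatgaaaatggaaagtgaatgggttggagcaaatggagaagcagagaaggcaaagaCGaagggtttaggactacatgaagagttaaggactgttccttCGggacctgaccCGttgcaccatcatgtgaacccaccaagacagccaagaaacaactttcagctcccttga
The first coding exon holds 1 CG, the second 2 and the third 3. The deposited values are given per gene and not per site, so the sites cannot be told apart. With 15.9 CG dinucleotides per kb, CLV3 is among the CG-poorest of the 9 genes, beside STM with 15.8. CRN has 18.1, AT2G27240 23.7, CLV2 27.0 and WUS 27.3 per kb, and RPK2, AT2G27260 and CLV1 have 37.6, 41.3 and 42.7.

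CLV3 was the member whose CG methylation differed most between genotypes. Its CG level was 35.9% in poliv heat (70 of 195 calls, 29.5% to 42.8%) and 29.4% in poliv control (91 of 310 calls, 24.6% to 34.7%). In ddm1 it was 1.78% in heat (4 of 225 calls, 0.693% to 4.48%) and 0.662% in control (2 of 302 calls, 0.182% to 2.38%). In wt it was 3.3% in heat (9 of 273 calls, 1.74% to 6.15%) and 3.06% in control (6 of 196 calls, 1.41% to 6.52%). Both poliv groups thus lay far above the other 4 groups, and the counting intervals did not overlap. The difference between poliv and wt was 32.6 points in the heat pair (95% interval 25.6 to 39.7, adjusted p = 1.84e-18, Fisher's exact test) and 26.3 points in the control pair (20.4 to 31.8, adjusted p = 7.08e-13, Fisher's exact test). Averaged over both pairs, the gain of CLV3 ranked 9th from the top among 26975 genes. Of the 9 members, CLV3 alone was higher in CG in poliv and 0 were lower, while of all genes 3.73% were higher and 2.12% lower. When the test statistics were scaled for the spread seen between heat and control libraries, CLV3 stayed higher. Its adjusted p values were then 4.99e-07 in the heat pair and 0.000435 in the control pair (z test of 2 proportions, scaled).

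**Figure D1:**
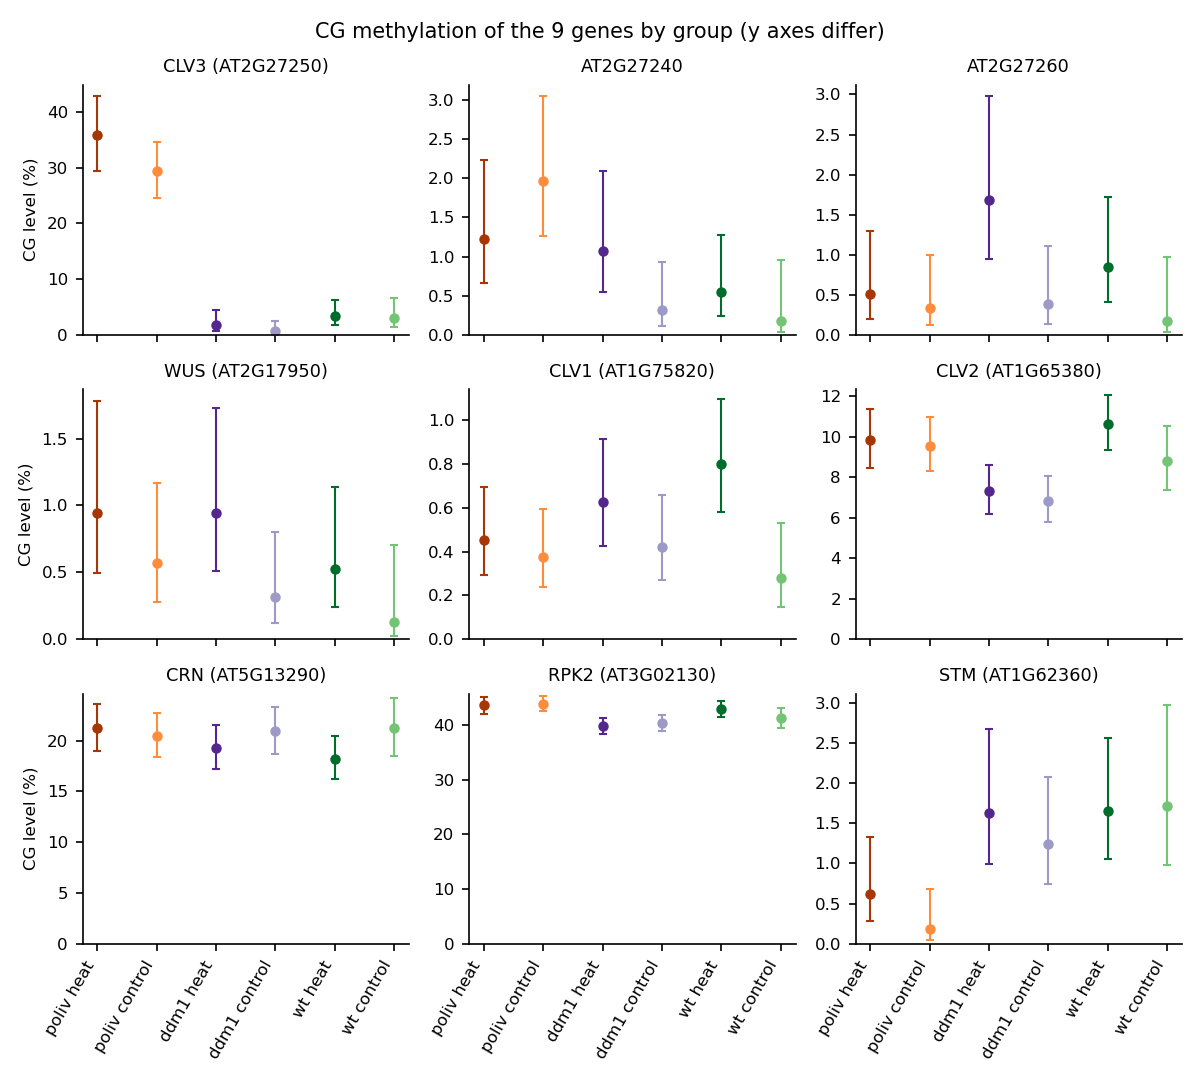
CG level in percent of each of the 9 genes in the 6 groups, 1 point per group of 2 pooled libraries with its 95% Wilson interval; the y axes differ between panels and all start at 0. CLV3 sits at 35.9% and 29.4% in the poliv groups and at or below 3.3% elsewhere, RPK2, CRN and CLV2 carry CG methylation in every group, and the other 5 genes stay below 2%.

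In CHG, CLV3 had 4.36% in poliv heat (12 of 275 calls) and 4.50% in poliv control (20 of 444 calls). It had 1.56% in ddm1 heat and 0.959% in ddm1 control, from 5 of 321 and 4 of 417 calls. In wt it had 2.16% in heat (8 of 370 calls) and 0.357% in control (1 of 280 calls). The control pair of poliv and wt differed by 4.15 points (1.88 to 6.52) with an adjusted p of 0.0646 in Fisher's exact test, and the heat pair by 2.20 points (-0.557 to 5.49) with an adjusted p of 0.895. Neither pair passed the threshold, and the CHG levels of CLV3 lay well below its CG levels in poliv. The control pair passed with the chloroplast level subtracted (adjusted p = 0.0183, Fisher's exact test) and with p values adjusted over all features (0.0283), while the heat pair had 0.689 and 0.831, and with scaled statistics neither pair passed. In CHH, CLV3 had 1.39% in poliv heat (18 of 1295 calls, 0.881% to 2.19%) and 0.569% in poliv control (12 of 2108 calls, 0.326% to 0.992%), where the chloroplast had 0.704% and 0.404%. Its CHH level was 1.06% and 0.358% in ddm1 heat and control, and 0.875% and 0.654% in wt heat and control.

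**Figure D2:**
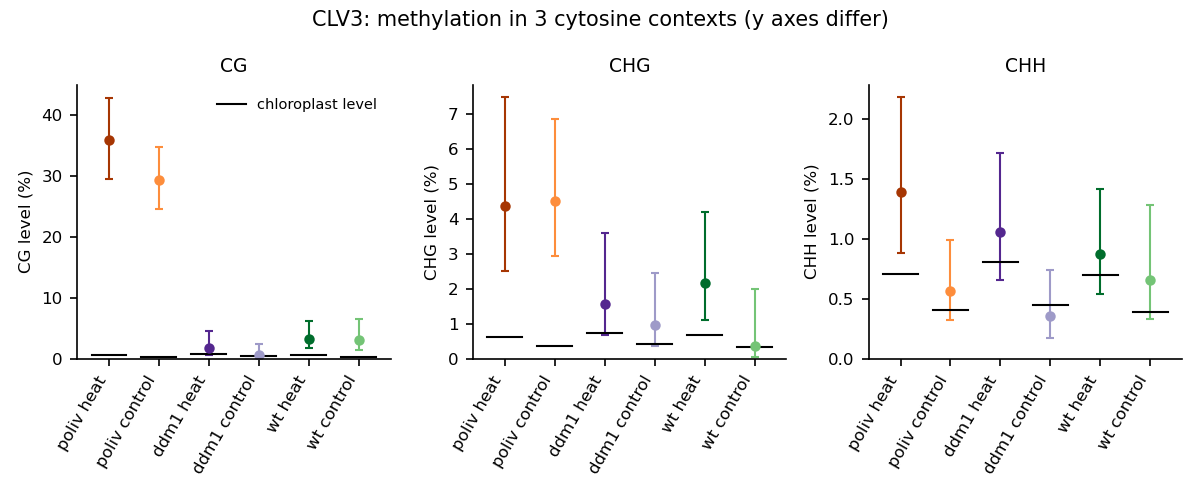
CLV3 levels in percent in CG, CHG and CHH in the 6 groups, with 95% Wilson intervals; black bars give the chloroplast level of the same group and context, and the y axes differ. The poliv groups stand apart in CG, reach 4.36% and 4.50% in CHG, and have 1.39% and 0.569% in CHH.

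The genes on either side of CLV3 did not share this pattern. AT2G27240, annotated in RefSeq as a member of the aluminium-activated malate transporter family, ends 2569 bases before CLV3, and AT2G27260, annotated as a late embryogenesis abundant hydroxyproline-rich glycoprotein, starts 3831 bases after it. AT2G27240 had CG levels of 1.22% in poliv heat and 1.97% in poliv control, 1.07% and 0.319% in ddm1 heat and control, and 0.549% and 0.169% in wt heat and control. Its control pair passed (1.80 points, 0.746 to 2.89, adjusted p = 0.0213, Fisher's exact test) and its heat pair did not (0.675 points, -0.244 to 1.74, adjusted p = 0.524), so it was not counted. AT2G27260 had CG levels of 0.506% and 0.338% in poliv heat and control, 1.68% and 0.379% in ddm1 heat and control, and 0.839% and 0.173% in wt heat and control. All values of both neighbours lay below 2%, where the wt median over genes was 5.17% in heat and 4.71% in control.

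Over the loci numbered AT2G27200 to AT2G27300, CLV3 and AT2G27229 were the genes that differed in CG between poliv and wt. AT2G27229, which RefSeq annotates as a pentatricopeptide repeat protein, moved the other way. It had 22.2% in poliv heat and 10.4% in poliv control, 13.7% and 6.99% in ddm1 heat and control, and 71.9% and 67.6% in wt heat and control, from 145 to 327 calls. LHW (AT2G27230), which lies between it and AT2G27240, had 53.1% and 47.7% in poliv heat and control against 43.8% and 44.7% in wt heat and control, and was not counted because it did not pass in both pairs.

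**Figure D3:**
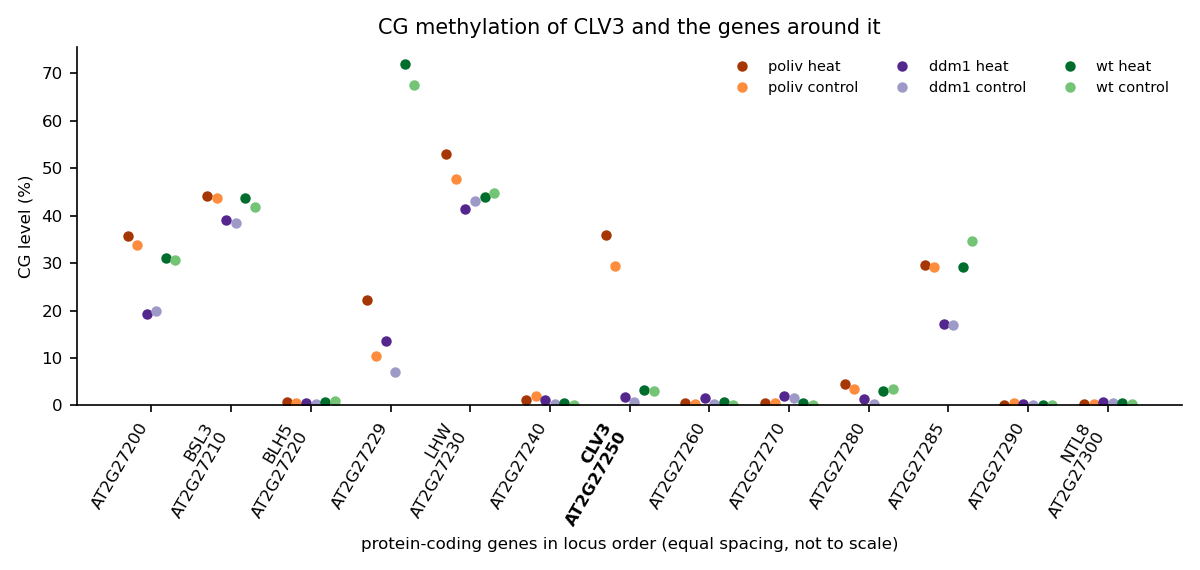
CG level in percent of CLV3 and the protein-coding genes with neighbouring locus numbers, in locus order at equal spacing, 1 point per group. CLV3 is high in poliv heat and control alone, AT2G27229 is high in wt heat and control, and both direct neighbours of CLV3 stay below 2%.

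Because all plants carry a construct with CLV3 promoter sequence, the coverage of CLV3 was set beside that of its neighbours. Cytosines were counted over the RefSeq interval of each gene, which may differ from the interval behind the deposited calls. CLV3 had 7.50 and 11.9 CG calls per CG cytosine in poliv heat and control, 8.65 and 11.6 in ddm1 heat and control, and 10.5 and 7.54 in wt heat and control. AT2G27240 had 4.42 to 7.21 and AT2G27260 6.89 to 10.6 over the 6 groups. Relative to the mean of both neighbours, CLV3 had 0.968 and 1.34 times their calls per cytosine in poliv heat and control, 1.29 and 1.41 times in ddm1 heat and control, and 1.26 and 1.33 times in wt heat and control. The CG ratio in poliv heat was the lowest of the 6 and that in ddm1 control the highest. The poliv control ratio lay beside that of wt control. In CHH the ratio was 1.16 and 1.49 in poliv heat and control, and 1.41 and 1.58 in ddm1 heat and control. In wt heat and control it was 1.36 and 1.42 in CHH. In CHG it ranged from 0.943 in poliv heat to 1.26 in wt control. In CG in poliv heat, CLV3 lay below the other 6 members, of which the lowest had 8.87 calls per CG cytosine. In each of the other 5 groups it lay within their range in CG. In poliv heat it also lay below them in CHG (6.88 against a lowest of 8.07) and CHH (5.51 against 5.88). The same held in ddm1 heat in CHG (8.03 against 8.10) and CHH (6.43 against 6.53), and in wt heat in CHG (9.25 against 10.2). The part of the reporter in the CLV3 calls was not tested.

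**Figure D4:**
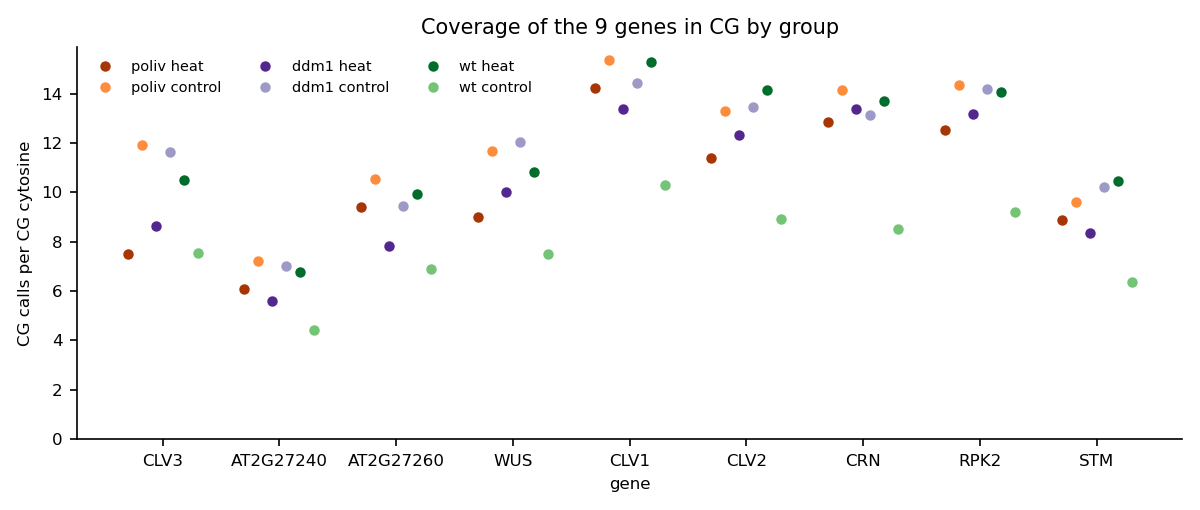
CG calls per CG cytosine of each of the 9 genes, 1 point per group of 2 pooled libraries. CLV3 has 7.50 to 11.9 calls per cytosine, and wt control has fewer calls than the other groups in every gene but CLV3, where poliv heat is lower.

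The genes whose 6 CG levels lay nearest those of CLV3 were found by the root mean square distance among 26020 genes with at least 100 CG calls in every group. Nearest was AT1G68420, annotated in RefSeq as a class II aminoacyl-tRNA and biotin synthetase superfamily protein, at 1.93 points. It had 35.5% and 29.8% in poliv heat and control, 0.585% and 0% in ddm1 heat and control, and 0% in both wt groups, from 106 to 232 calls. AT1G31520 followed at 4.19 points, AT5G44770 at 4.65, AT1G63330 at 5.60 and AT2G41375 at 5.63. These 5 genes were chosen for the likeness, and nothing further is read from it. Their CHG levels in poliv were not alike: AT1G63330 had 13.8% and 13.8% in poliv heat and control, whereas AT1G68420 had 0% and 0.426%.

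Of the receptor genes, CLV1 was close to unmethylated and CLV2, CRN and RPK2 carried CG methylation in all genotypes. RPK2, a leucine-rich repeat receptor kinase, had CG levels of 43.6% and 43.9% in poliv heat and control, 39.8% and 40.3% in ddm1 heat and control, and 42.9% and 41.3% in wt heat and control, from 2921 to 4563 calls. CRN, a membrane-bound kinase-like partner of CLV2, had 21.2% and 20.5% in poliv heat and control, 19.3% and 20.9% in ddm1 heat and control, and 18.2% and 21.2% in wt heat and control. CLV2, a receptor-like protein without a kinase domain, had 9.83% and 9.56% in poliv heat and control, 7.30% and 6.85% in ddm1 heat and control, and 10.6% and 8.81% in wt heat and control. CLV1, the receptor kinase that binds the CLV3 peptide, had between 0.281% and 0.799% in the 6 groups, from 3208 to 4772 calls. For RPK2, CRN and CLV2 the groups lay within a few points of each other, and for CLV1 all groups lay within 1 point.

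In ddm1, where 30.9% of all genes were lower in CG and 0.956% higher, 0 of the 9 members were counted in either direction. CLV2 differed from wt by -3.31 points in the heat pair (-5.14 to -1.47, adjusted p = 0.00166, Fisher's exact test) and by -1.96 points in the control pair (-3.97 to -0.0619, adjusted p = 0.125). RPK2 differed by -3.06 points in the heat pair (-5.13 to -0.986, adjusted p = 0.0112, Fisher's exact test) and by about -1 point in the control pair (-3.29 to 1.28, adjusted p = 0.666). For these genes the heat pair passed and the control pair did not, and with scaled statistics neither pair passed. The median CG difference between ddm1 and wt was -0.0154 points over the 9 members and -0.735 points over all genes. STM, CLV1, WUS, AT2G27240 and AT2G27260 had at most 1.71% in wt, and CLV3 at most 3.3%. These levels left little room for a loss in ddm1.

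The transcription factor genes had little methylation in any context. WUS had CG levels of 0.942% and 0.566% in poliv heat and control, 0.942% and 0.313% in ddm1 heat and control, and 0.523% and 0.125% in wt heat and control, from 797 to 1276 calls. STM had CG levels of 0.615% and 0.189% in poliv heat and control, 1.63% and 1.25% in ddm1 heat and control, and 1.65% and 1.71% in wt heat and control. STM was lower in poliv by 1.52 points in the control pair (-2.79 to -0.640, adjusted p = 0.0147, Fisher's exact test), whereas the heat pair, with -1.04 points (-2.01 to -0.106), had an adjusted p of 0.178. With the chloroplast level subtracted, STM passed in both pairs, with adjusted p values of 0.017 in the heat pair and 0.00314 in the control pair (Fisher's exact test), but not when the statistics were also scaled. The calls behind this difference were 6 of 976 and 2 of 1059 in poliv heat and control, against 19 of 1149 and 12 of 701 in wt heat and control.

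Ordered by CG level in wt heat, RPK2 (41.4% to 44.3%) stood above CRN (16.2% to 20.5%), CRN above CLV2 (9.33% to 12%), and CLV2 above CLV3 (1.74% to 6.15%), with no overlap between the intervals of these neighbours in the order. Below CLV3 followed STM, AT2G27260, CLV1, AT2G27240 and WUS, whose intervals overlapped from one to the next. In poliv heat CLV3 (29.5% to 42.8%) took the place between RPK2 (42.0% to 45.1%) and CRN (19.0% to 23.6%). Its interval overlapped that of RPK2 there, and in poliv control it lay below RPK2 (42.5% to 45.3%) without overlap. In wt control, 46.0% of genes had a lower CG level than CLV3, and in poliv control 82.4% had.

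In CHG, RPK2 gained methylation in ddm1. Its CHG level was 7.74% in ddm1 heat (338 of 4365 calls, 6.99% to 8.57%) and 4.13% in ddm1 control (190 of 4596 calls, 3.60% to 4.75%). In wt it was 1.2% in heat (56 of 4678 calls, 0.923% to 1.55%) and 0.302% in control (9 of 2978 calls, 0.159% to 0.573%), and in poliv 1.04% in heat and 0.300% in control. Both ddm1 groups lay above the other 4 groups without overlap of the intervals. The difference between ddm1 and wt was 6.55 points in the heat pair (5.71 to 7.42, adjusted p = 4.34e-55, Fisher's exact test) and 3.83 points in the control pair (3.23 to 4.46, adjusted p = 2.99e-29, Fisher's exact test). With scaled statistics it remained, with adjusted p values of 2.84e-13 in the heat pair and 5.64e-06 in the control pair (z test of 2 proportions, scaled). RPK2 was the 1 member of 9 that was higher in CHG in ddm1 and 0 were lower, against 7.79% of all genes higher and 4.24% lower. In poliv 0 members were higher or lower in CHG, with 0.141% of all genes higher and 0.43% lower. The gain ranked 583rd from the top among 26952 genes. The CHG level of the other 8 members reached at most 4.50%, and at most 1.47% when CLV3 is left out.

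**Figure D5:**
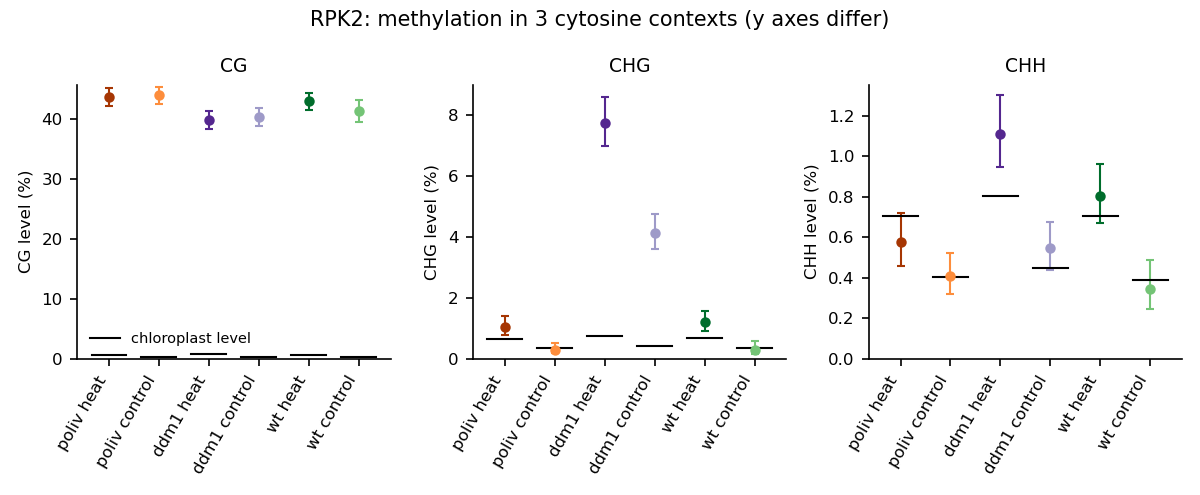
RPK2 levels in percent in CG, CHG and CHH in the 6 groups, with 95% Wilson intervals and the chloroplast level of each group as black bars; the y axes differ. CG levels lie between 39.8% and 43.9% throughout, CHG levels are 7.74% and 4.13% in ddm1 heat and control against 1.2% and 0.302% in wt heat and control, and CHH levels lie between 0.346% and 1.11%.

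In CHH, 0 of the 9 members differed in the same direction in both pairs. Of all genes, 0.14% were higher and 0.922% lower in CHH in poliv, and 1.56% higher and 2.45% lower in ddm1. Levels ranged from 0.168% to 2.33% over the 9 members and 6 groups. AT2G27260 had the widest range, with 0.302% and 0.168% in poliv heat and control, 2.33% and 0.225% in ddm1 heat and control, and 0.985% and 1.90% in wt heat and control, from 1103 to 1783 calls. It was higher in ddm1 than in wt in the heat pair (1.35 points, adjusted p = 0.0375, Fisher's exact test) and lower in the control pair (-1.68 points, adjusted p = 0.000975, Fisher's exact test). Neither difference passed with scaled statistics.

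Whether heat left a mark on these genes 3 weeks later was compared within each genotype. In CG, 0 of 9 members passed in poliv, ddm1 or wt, where 2.85%, 4.39% and 1.48% of all genes passed in either direction. At an unadjusted p below 0.05, 0 members passed in poliv, 1 in ddm1 and 1 in wt. CLV3 differed by 6.54 points between poliv heat and poliv control, with an interval of -1.77 to 15.0 and an adjusted p of 0.561 in Fisher's exact test. The difference was 1.12 points in ddm1 (-0.918 to 3.86) and 0.235 points in wt (-3.55 to 3.53). At RPK2, with more calls, the heat difference in CG was -0.333 points in poliv (-2.44 to 1.77), -0.475 points in ddm1 (-2.53 to 1.59) and 1.58 points in wt (-0.721 to 3.88).

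In CHG, RPK2 was higher in heat than in control in all 3 genotypes, and no other member passed. The difference was 0.740 points in poliv (0.405 to 1.12, adjusted p = 0.0105), 3.61 points in ddm1 (2.63 to 4.60, adjusted p = 9.41e-11) and 0.895 points in wt (0.509 to 1.28, adjusted p = 0.00723), each by Fisher's exact test. Of all genes, 0.675% passed in poliv, 6.85% in ddm1 and 1.83% in wt in either direction. The chloroplast CHG level stood at 0.635% and 0.355% in poliv heat and control, 0.736% and 0.409% in ddm1 heat and control, and 0.684% and 0.345% in wt heat and control, and thus moved in the same direction. With it subtracted, the difference was 0.411 points in poliv, 3.31 points in ddm1 and 0.513 points in wt, and RPK2 still passed in each genotype. With scaled statistics (z test of 2 proportions) it passed in ddm1 alone, and with both changes in no genotype.

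In CHH, 2 members were higher in heat in poliv, 5 in ddm1 and 6 in wt, and 0 were lower. These counts stand against 31.4% of all genes in poliv, 44.2% in ddm1 and 40.3% in wt that passed in either direction. The members were CLV2 and STM in poliv, CLV3, AT2G27240, AT2G27260, RPK2 and STM in ddm1, and WUS, CLV1, CLV2, CRN, RPK2 and STM in wt. STM, which passed in all 3, had 0.774% and 0.336% in poliv heat and control, 0.806% and 0.464% in ddm1 heat and control, and 0.693% and 0.292% in wt heat and control. These levels lie beside the chloroplast CHH levels of 0.704% and 0.404% in poliv heat and control, 0.805% and 0.450% in ddm1 heat and control, and 0.703% and 0.390% in wt heat and control. With the chloroplast level subtracted, STM no longer passed in any genotype. Of all genes, 5.29% were then higher and 3.04% lower in poliv, 10.3% and 3.99% in ddm1, and 10.8% and 5.95% in wt. WUS and RPK2 remained higher in wt, where AT2G27260 was lower, AT2G27260 and RPK2 remained higher in ddm1, where WUS was lower, and in poliv AT2G27240 alone passed and was lower. The difference of RPK2 became 0.218 points in ddm1 and 0.101 points in wt with the subtraction, against 0.566 and 0.458 points without it. That of WUS in wt became 0.444 points, against 0.786, and that of AT2G27260 in ddm1 1.5 points, against 2.11. With scaled statistics 0 members passed in any genotype. Of all 27129 genes, 0 passed then in poliv and wt, and 1, lower in heat, passed in ddm1. The scaled counts therefore say nothing particular about the members.

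The heat effect of each mutant was also compared with that of wt. In CG, 0 of 9 members passed for poliv or ddm1, where 1.45% and 2.22% of all genes did. At CLV3 the heat effect on CG in poliv exceeded that in wt by 6.31 points (p = 0.163, adjusted p = 0.615, z test with binomial variance on the pooled calls). In CHG, 0 members passed for poliv, against 0.0631% of all genes, and RPK2 passed for ddm1, against 2.42%. Its heat effect was 3.61 points in ddm1 and 0.895 points in wt, a difference of 2.71 points (adjusted p = 4.31e-05, z test with binomial variance) that did not pass with scaled statistics. In CHH, 0 members passed for poliv, against 5.19% of all genes, and for ddm1 AT2G27260 passed with a higher effect and WUS with a lower one, against 6.06%. Neither passed with scaled statistics.

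A wider list of 38 meristem genes was set beside the members. It covers further receptors (the BAM and ERECTA families), signalling inside the cell, partners, targets and regulators of WUS, and partners of STM with boundary genes. In poliv 0 of the 38 were higher or lower in CG, where 3.73% of all genes were higher and 2.12% lower, or in CHG, where 0.141% were higher and 0.43% lower. With the chloroplast level subtracted, BAM1, HAM2 and AS1 were lower in CG in poliv, but not when the statistics were also scaled. Of all genes, 4.40% were higher and 2.49% lower with the subtraction, and 1.07% and 0.686% with scaling as well. In ddm1 8 were lower in CG and 0 higher, against 30.9% of all genes lower and 0.956% higher: the receptor genes BAM3, ERL1 and ERL2, the phosphatase gene KAPP, AHK4, SYD and FAS2 among the regulators of WUS, and the KNOX gene KNAT2. With scaled statistics 4 of these, BAM3, AHK4, SYD and FAS2, passed, where 21.4% of all genes were lower and 0.215% higher. The largest losses were those of BAM3 (AT4G20270), a receptor kinase related to CLV1, and AHK4 (AT2G01830), a cytokinin receptor. BAM3 had 2.46% and 2.04% in ddm1 heat and control, against 14.6% and 14.8% in wt heat and control. AHK4 had 40.3% and 41.8% in ddm1 heat and control, against 54.0% and 50.6% in wt heat and control. The median CG difference of the list was -0.355 points, against -0.735 points over all genes.

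In CHG 5 of the 38 were higher in ddm1 and 0 lower, where 7.79% of all genes were higher and 4.24% lower: ERECTA, POL, AHK4, SYD and PNF. With scaled statistics 2 of them, ERECTA and SYD, passed, and with the chloroplast level subtracted 8 of the list were higher. Of all genes, 2.85% were higher and 3.08% lower with scaling, and 10.4% and 4.47% with the subtraction. ERECTA (AT2G26330), a receptor kinase that acts in stem growth and meristem size, had 12.7% and 9.53% in ddm1 heat and control, against 0.580% and 0.259% in wt heat and control. AHK4 had 4.61% and 2.95% in ddm1 heat and control, against 0.834% and 0.914% in wt heat and control. In CHH BAM2 (AT3G49670), another CLV1-related receptor kinase, was higher in both mutants, with 2.76% and 2.24% in poliv heat and control, 2.95% and 1.79% in ddm1 heat and control, and 2.11% and 1.27% in wt heat and control. BAM2 was the 1 gene of the list that passed in CHH in either mutant, and it did not pass with scaled statistics. Of all genes, 0.14% were higher and 0.922% lower in poliv, and 1.56% and 2.45% in ddm1. With the chloroplast level subtracted, AHK4 was also lower in poliv, and ERECTA and PNY were also higher in ddm1. The shares of all genes were then 0.365% higher and 2.28% lower in poliv, and 2.09% and 4.11% in ddm1.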

How the data were processed

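Per the labels and the study's methods, libraries were made with a low-input bisulfite kit and sequenced as single reads. The authors used bedtools 2.27 for conversion, Trim Galore 0.6.2 for trimming and Bismark 0.22.2 for alignment (build TAIR10) and deduplication before methylation was called. The deposited table gives, per feature, group and context, counts of methylated calls, coverage (counts of all calls) and their fraction. The 42 value columns used are each pooled over the 2 libraries of a group, with no coverage below 21. The 12 columns of the CHG and CHH fraction were not used. The CG fraction is the ratio of the calls. Unconverted cytosines raise levels, more in the heat groups, and 2 features name no locus and were left out.

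Levels, Wilson intervals, intervals of differences, Fisher's exact tests and z tests of the difference between heat effects, with levels taken as (methylated + 1)/(calls + 2), were computed with Python 3.11.15, SciPy 1.17.1, pandas 2.3.3 and statsmodels 0.14.6 and tested on simulated data. Adjustment ran over 26975 genes in CG, 26952 in CHG and 27129 in CHH. Alternatives were at least 50 calls, subtraction of the chloroplast level, scaling of statistics by the dispersion between heat and control libraries, adjustment over all features, and each pair alone. Gene coordinates and sequence are from RefSeq TAIR10.1 and were not joined to the deposited table by position. The named genes are the 9 members, per mutant and context the 2 largest gains and 2 largest losses called among the listed meristem genes, the 5 genes nearest CLV3, genes called in CG in poliv at loci near CLV3, and the mutated genes. Of 42 listed genes, 4 (CIK1 to CIK4) were left out because RefSeq gives no such symbol. LHW and other listed genes were named after their values were seen. The members and lists were chosen with earlier results of these data known.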

Additional observations from a re-analysis of the deposited data

Results flagged for a closer look

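For 3 results the heat effect in ddm1 differed from the heat effect in wt by a z test of the difference on the pooled calls. Of all genes, 2.42% passed this test in CHG and 6.06% in CHH, in either direction. The CHG heat effect of RPK2 was 2.71 points larger in ddm1 than in wt (adjusted p = 4.31e-05, binomial variance). The CHH heat effect of AT2G27260 was 3.03 points larger in ddm1 (adjusted p = 0.000357, binomial variance), with levels of 2.33% and 0.225% in ddm1 heat and control against 0.985% and 1.90% in wt heat and control. The CHH heat effect of WUS differed by -1.03 points (adjusted p = 0.0157, binomial variance), with 0.646% and 0.887% in ddm1 heat and control against 1.14% and 0.35% in wt heat and control. The chloroplast CHH level was 0.805% and 0.450% in ddm1 heat and control, and 0.703% and 0.390% in wt heat and control. With statistics scaled for dispersion none of these 3 results passed. The 2 libraries of a group cannot be told apart, so whether 1 library carries any of these values was not tested.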

How the results depend on the processing

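No paired analysis was possible because the deposited columns pool both libraries of a group, and for the same reason leaving out each replicate was not run. The deposited fraction was set against the recomputed level in CG and was not run in CHG or CHH. The CG call of CLV3 in poliv and the CHG call of RPK2 in ddm1 held in every alternative run. With the chloroplast level subtracted, members called in CG in poliv numbered 2 instead of 1 (STM was added), those in CHH in ddm1 against wt 1 instead of 0 (RPK2), those for heat in CHH 1 in poliv, 3 in ddm1 and 3 in wt, and those for the CHH heat effect of poliv minus that of wt 4 instead of 0. Of all genes, 4.40% were then higher and 2.49% lower in CG in poliv, and 2.09% and 4.11% in CHH in ddm1. For heat in CHH, 5.29% were higher and 3.04% lower in poliv, 10.3% and 3.99% in ddm1, and 10.8% and 5.95% in wt. For the CHH heat effect of poliv minus that of wt, 6.75% were higher and 10.5% lower. Without subtraction 5.19% passed there in either direction. STM in CHH for heat in ddm1 then differed by -0.0129 points, also with scaling. With scaled statistics, alone or with subtraction, 0 members passed for heat in CHG in poliv and wt, for heat in CHH in any genotype, and for the heat effect of ddm1 minus that of wt in CHG and CHH, and with both changes 0 passed for heat in CHG in ddm1. Scaling alone left few genes of any kind. For heat in CHG it left 1 higher and 1 lower in poliv and 0 in wt. For heat in CHH it left 0 in poliv and wt and 1 lower in ddm1. For the heat effect of ddm1 minus that of wt, it left 0.275% of genes higher and 0.0668% lower in CHG, and 1 gene higher in CHH. With both changes, 0.252% were higher and 0.0890% lower for heat in CHG in ddm1. The control pair alone gave 3 members in CG in poliv, and 1 in CHH in poliv and in ddm1. Of all genes, it gave 7.11% higher and 3.76% lower in CG in poliv. In CHH it gave 1.06% and 2.43% in poliv, and 3.46% and 4.25% in ddm1. The heat pair alone gave 2 members in CG in ddm1, and 1 in CHH in poliv and in ddm1. Of all genes, it gave 2.84% higher and 39.3% lower in CG in ddm1. In CHH it gave 1.90% and 6.22% in poliv, and 8.20% and 6.20% in ddm1. Over all counts of members under all alternatives, 84 values stayed within 1.5 times the main count and 27 did not. Most of the 84 were counts of 0 that stayed 0, so this total says little about the counts above 0. In CG, CLV3 had 195 to 310 calls per group, and in CHG and CHH AT2G27260 had 227 to 373 and 1103 to 1783 calls.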
